A study of Mus musculus with 4 samples.

Results

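The genes described are the voltage-gated sodium and calcium channel genes and the potassium channel genes, taken as every row of the expression table whose symbol begins with Scn and a digit, Cacna, Cacnb, Cacng or Kcn. The rule found 105 of the 16600 genes, of which 10 were sodium, 23 calcium and 72 potassium channel genes. They were read in cortical cells of 2 wild type (*Setd5*+/+) and 2 heterozygous (*Setd5*+/-) mouse fetuses at E18.5, sorted as CD24+ CD45- to enrich neuronal cells and deplete blood cells. The heterozygotes carry a GFP knock-in in 1 allele of *Setd5*, and all 4 fetuses were otherwise untreated. One droplet library was made per fetus with a 3′ tag kit that counts unique molecular identifiers (UMIs), and the fetuses were the replicates. The table holds 6562 cells, 1445 to 1954 per library, with 8205330 to 11742956 UMIs per library. Libraries are called by the prefix of their cell names, WT3, WT6, Het5 and Het9, which gives the genotype and no replicate number. Levels are mean counts per 10000 UMIs over the cells of a class in a library.

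Voltage-gated channels open when the membrane depolarizes. Sodium channel alpha subunits carry the upstroke of the action potential, calcium channels admit the calcium that triggers transmitter release and gene regulation, and potassium channels set the resting potential and end the spike. The pore subunits work with auxiliary ones, such as calcium channel beta and alpha2delta subunits, which carry the pore to the membrane. In the fetal cortex, radial glia in the ventricular zone produce intermediate progenitors and through them excitatory neurons, while inhibitory cells come from Dlx-expressing progenitors of the subpallium.

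The upstream sequences of a few members whose levels set the classes apart are shown here, because the results below return to them. *Cacna2d1* was higher in excitatory neurons than in the Dlx neuron classes and *Cacna2d2* lower, *Cacnb3* was higher in neurons of each lineage than in their progenitors, and *Kcnh7* and *Kcnj10* were highest in radial glia among the pallial classes. Each sequence is the first listed RefSeq promoter of its gene, and further starts of a gene are not shown. It runs from 250 bases before the start to 50 bases after it on GRCm38.p6, 5′ to 3′ on the strand of the gene. They lie at chr5:15934441-15934740 (plus strand), chr9:107399630-107399929 (plus), chr15:98632078-98632377 (plus), chr2:63184238-63184537 (minus) and chr1:172340960-172341259 (plus), in the order printed. Capitals mark GGGCGG, the letters of a GC box, and CAGATG, an E-box form, read on either strand.
Cacna2d1: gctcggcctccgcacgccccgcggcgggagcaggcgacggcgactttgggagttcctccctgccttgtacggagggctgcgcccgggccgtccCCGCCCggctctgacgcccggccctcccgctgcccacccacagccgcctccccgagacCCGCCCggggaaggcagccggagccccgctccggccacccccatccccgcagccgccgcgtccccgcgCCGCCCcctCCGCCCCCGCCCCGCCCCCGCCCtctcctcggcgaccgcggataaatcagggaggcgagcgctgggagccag
Cacna2d2: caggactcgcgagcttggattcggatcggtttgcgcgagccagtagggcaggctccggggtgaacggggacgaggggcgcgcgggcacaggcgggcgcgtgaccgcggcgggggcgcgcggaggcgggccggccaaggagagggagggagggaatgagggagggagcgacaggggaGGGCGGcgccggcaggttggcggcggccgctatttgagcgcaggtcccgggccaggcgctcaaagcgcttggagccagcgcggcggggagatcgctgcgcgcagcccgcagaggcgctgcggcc
Cacnb3: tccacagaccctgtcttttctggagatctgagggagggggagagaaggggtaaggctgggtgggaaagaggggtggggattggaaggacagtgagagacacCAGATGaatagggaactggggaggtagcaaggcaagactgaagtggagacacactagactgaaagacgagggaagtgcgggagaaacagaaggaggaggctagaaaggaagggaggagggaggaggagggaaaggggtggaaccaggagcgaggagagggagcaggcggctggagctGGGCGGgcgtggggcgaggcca
Kcnh7: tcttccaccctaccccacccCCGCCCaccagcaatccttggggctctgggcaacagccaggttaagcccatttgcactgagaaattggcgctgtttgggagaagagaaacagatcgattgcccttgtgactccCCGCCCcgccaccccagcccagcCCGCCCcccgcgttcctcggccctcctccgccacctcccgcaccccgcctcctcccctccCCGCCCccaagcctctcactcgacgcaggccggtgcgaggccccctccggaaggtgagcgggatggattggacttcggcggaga
Kcnj10: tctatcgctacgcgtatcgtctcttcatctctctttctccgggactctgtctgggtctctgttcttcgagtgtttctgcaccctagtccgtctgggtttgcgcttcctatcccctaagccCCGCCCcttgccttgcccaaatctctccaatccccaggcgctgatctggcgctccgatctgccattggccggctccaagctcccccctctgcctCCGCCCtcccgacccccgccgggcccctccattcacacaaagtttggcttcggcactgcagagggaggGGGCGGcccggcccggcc
The printed promoter of *Cacna2d1* held 7 GGGCGG matches, some of which overlap, that of *Kcnh7* held 4 and that of *Kcnj10* held 3, and *Cacna2d2* and *Cacnb3* had 1 each. CAGATG was found in the printed promoter of *Cacnb3* and in none of the other 4 printed. RefSeq promoters were given for 75 of the 105 members (106 promoters). GGGCGG was in 47.2% of them and in 35.7% of all 32851 promoters, CAGATG in 15.1% and 17.2%, and TATAAA in 4.72% and 13.6%. TAATTA, a homeodomain core that Dlx proteins read, was in 0% of member promoters and 5.29% of all, and TTCAGCACC, a stretch of the element bound by the neuronal gene repressor REST, in 0% and 0.371%. All were searched on both strands, and a match is a description of the letters in these windows.

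The labels were checked on *Setd5* first. Its level was 1.18 (WT3), 1.07 (WT6), 0.540 (Het5) and 0.586 (Het9), so both heterozygous libraries lay below both wild type ones. The genotypes also differed in sex. *Xist* read 20.6 and 21.5 in the wild type libraries and 0.152 and 0.310 in the heterozygous ones, and *Eif2s3y*, on the Y chromosome, was at 0 in the wild type libraries and at 0.573 and 0.670 in the heterozygous ones. Genotype and sex therefore cannot be told apart here. The sort was reflected in *Cd24a* at 12.2 to 14.2 and *Ptprc* (CD45) at 0.0733 to 0.161. Endothelial and pericyte markers summed to at most 0.0210 and 0.0621 in a library, immune markers to 2.46 to 5.01 and globin genes to 15.5 to 61.8. In each library, 56 cells had a barcode found in all 4 libraries.

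Cells were placed in classes by UMIs of fixed marker genes, which hold no channel gene. The pallial classes were radial glia (375 cells), cycling pallial cells (474), intermediate progenitors (1360) and excitatory neurons (1852), and the Dlx classes were cycling Dlx cells (840), other Dlx cells (552), interneuron-marker cells (265) and striatal-marker cells (313). The markers mostly followed the names. *Slc1a3* averaged 5.81 in radial glia and 0.183 in excitatory neurons, *Neurod6* 14.9 in excitatory neurons, *Lhx6* 4.14 in interneuron-marker cells and *Ebf1* 16.6 in striatal-marker cells. The radial glia class also held *Neurog2* at 4.74 and *Eomes* at 2.25, genes of cells leaving that state. A further 39 cells passed the gate for Cajal-Retzius neurons, with *Reln* at 17.4 and *Trp73* at 2.37. A pair of small classes was made largely of cells with barcodes shared by several libraries, 135 of 137 melanocyte and 77 of 100 immune cells. They entered the fits that compare classes and were also left out as a check.

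Channel transcripts were sparse. The 105 members together gave 34861 of 38756274 UMIs, from 2 to 5289 per gene with a median of 81. Of these, 11 had at least 1000 UMIs and 36 had under 20. *Kcnq1ot1* had the most with 5289. It is a long noncoding RNA antisense to *Kcnq1* that silences neighbors on the paternal chromosome, makes no channel and belongs to the set by its symbol alone, as do the other 3 noncoding members. The largest of the channel genes were *Kcnk2* (2779), *Cacna2d1* (2071), *Cacnb3* (2052), *Cacng4* (1584), *Kcnn2* (1320) and *Scn3a* (1311). *Kcnq1ot1* had the highest level in every class described here but cycling Dlx and striatal-marker cells, where *Cacng4* led (0.442 and 1.06), glial progenitors, where *Kcnk2* led (1.74), and Cajal-Retzius cells, where *Cacna2d2* led (4.58). UMIs sit near 3′ ends, so beyond this order by counts, levels are compared between classes and libraries and not between genes.

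Summed over all members, the level in all cells was nearly the same under each prefix, 9.16 in WT3, 9.55 in WT6, 9.31 in Het5 and 9.42 in Het9. Between classes it ranged more widely. It averaged 8.27 ± 0.57 (SD, n = 4 libraries) in radial glia, 6.23 ± 0.22 in cycling pallial cells, 8.69 ± 0.23 in intermediate progenitors and 13.1 ± 0.37 in excitatory neurons. In the Dlx lineage it was 5.16 ± 0.44 in cycling cells, 10.6 ± 1.94 in interneuron-marker cells and 10.7 ± 1.17 in striatal-marker cells. Cajal-Retzius cells had 26.3 ± 5.13, and melanocytes 1.73 ± 0.21. Without *Kcnq1ot1*, radial glia and intermediate progenitors were level at 6.81 and 6.72, with 11.4 in excitatory neurons, 23.4 in Cajal-Retzius cells and 0.890 in melanocytes. When cells were thinned to 3000 UMIs, a radial glial cell showed 2.02 members on average, an excitatory neuron 3.25, a cycling Dlx cell 1.41, a Cajal-Retzius cell 5.92 and a melanocyte 0.520. The unthinned means were 3.90, 5.56, 2.96, 10.3 and 0.841.

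**Figure D1:**
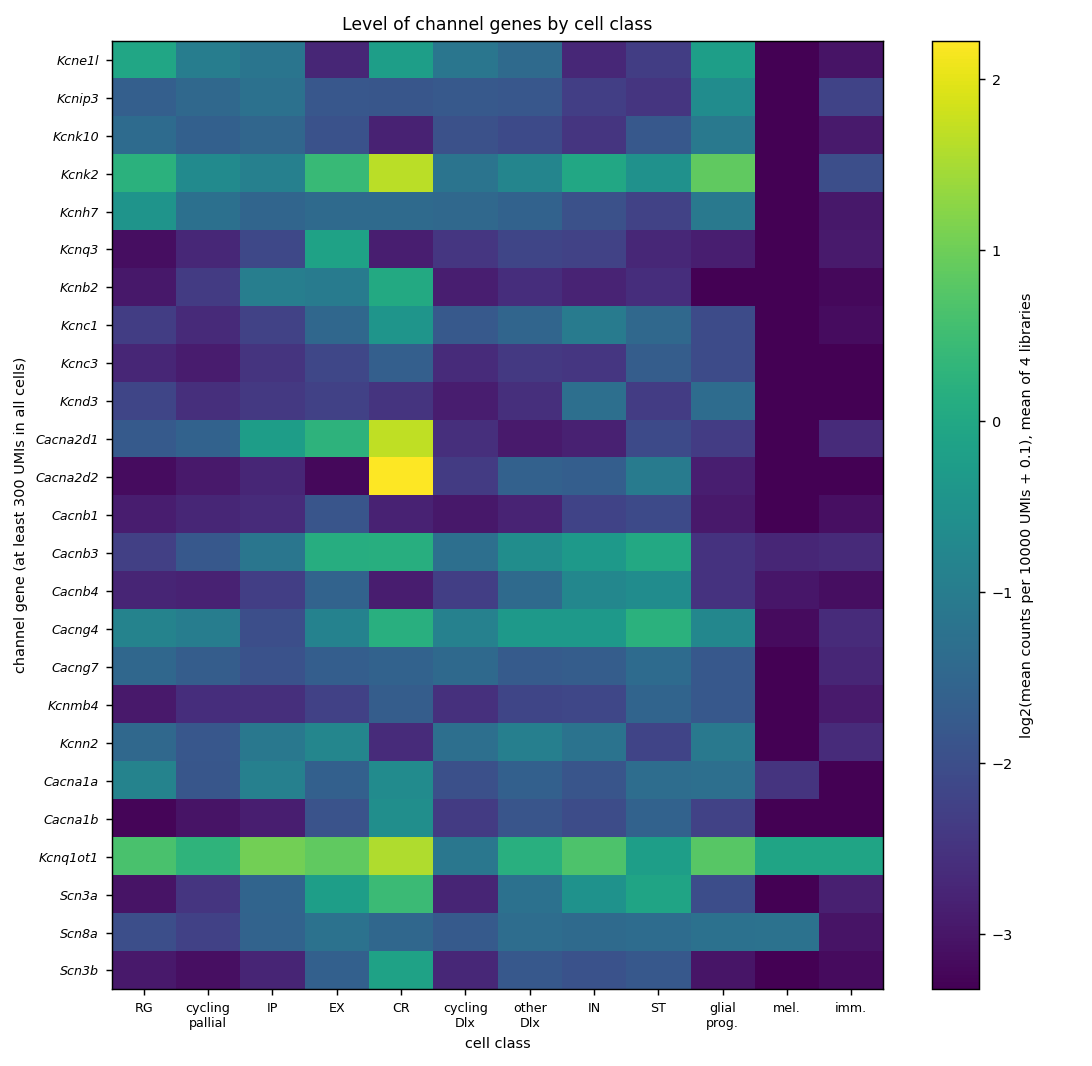
Level of members with at least 300 UMIs in all cells, as log2(mean counts per 10000 UMIs + 0.1) averaged over 4 libraries, with 1 row per gene grouped by channel family and 1 column per cell class (RG, radial glia; IP, intermediate progenitor; EX, excitatory neuron; CR, Cajal-Retzius; IN, interneuron-marker; ST, striatal-marker; mel., melanocyte; imm., immune). *Cacna2d2* is brightest in CR at 4.58 counts per 10000, *Kcnq3* in EX, and most rows are dark in melanocytes, where *Kcnq1ot1* and *Scn8a* are the exceptions.

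For differences between classes, limma was fitted to log2(mean + 0.1) with the library as a block, over all genes that averaged at least 0.1, and p-values were adjusted over all of these by the Benjamini-Hochberg method. Of the 105 members, 20 passed this filter. *Cacna2d2* (0.104) was the lowest to pass, and *Scn3b* (0.0929), *Kcnd3* (0.0900) and *Cacna1b* (0.0892) fell just below it. Of the 20, 3 would not have passed without the class where they were highest, namely *Kcnq3* (0.142, and 0.0673 without excitatory neurons), *Kcnb2* (0.116, and 0.0823 without intermediate progenitors) and *Cacna2d2* (0.0716 without striatal-marker cells). These had to differ between classes, and counts of called members include them. Fold changes on this scale understate those of genes near the pseudocount. Fewer transcripts in a class can mean less RNA per cell of that gene or fewer cells that carry it.

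The question along the pallial path was which channels appear between radial glia and excitatory neurons. Of the 20 members tested, 9 rose and 3 fell, where 16.7% of all genes tested rose and 18% fell. Of those that rose, 8 are reported here, namely the sodium channel pores *Scn3a* and *Scn8a*, the calcium channel beta subunits *Cacnb3* and *Cacnb4*, the alpha2delta subunit *Cacna2d1* and the potassium channels *Kcnq3*, *Kcnb2* and *Kcnc1*. Of these, *Kcnq3* and *Kcnb2* passed the filter only through their highest class. Those that fell were *Kcne1l*, *Kcnh7* and *Cacna1a*. All 12 moved the same way in all 4 libraries. Without the cells whose barcodes recur between libraries, the melanocyte and immune profiles dropped out, 25 members passed the filter, and 14 rose and 3 fell, with 3920 of 8096 genes called.

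*Scn3a* encodes NaV1.3, the sodium channel pore of fetal brain. In radial glia it read 0 in WT3, 0.0265 in WT6, 0.0114 in Het5 and 0.0489 in Het9, and in excitatory neurons 0.837, 0.753, 0.773 and 0.708. Every excitatory value was far above every radial glial one, and the log2 fold change was 2.85 ± 0.26 (standard error; limma, adjusted p = 6.13e-12). Intermediate progenitors lay between, at 0.222 to 0.263, and each step was called (1.51 ± 0.26 from radial glia and 1.34 ± 0.26 on to neurons), the second not with a pseudocount of 0.01 in place of 0.1 (1.62, adjusted p = 0.173). After thinning to 3000 UMIs, a UMI of *Scn3a* was found in 0.538% of radial glia, 5.96% of intermediate progenitors and 16.9% of excitatory neurons (1.60%, 11.3% and 28.3% unthinned, at median depths of 6568, 6058 and 5419.5 UMIs). Of the classes outside the neural lineages, none of the 121 thinned melanocytes had one (median 5518 UMIs). This allows a share of up to 3% (exact Clopper-Pearson 95% interval), counting error only. In erythroid cells (median 8786) it was 1 of 23 thinned cells, or 4.35% (exact Clopper-Pearson 95% interval 0.11 to 21.9%), and 6 of 32 unthinned ones, or 18.8%. In immune cells (median 1931.5) it was 1 of 25, or 4%, and 2 of 100 unthinned. The share in radial glia, 0.538%, lay within the exact 95% intervals of erythroid and immune cells (immune 0.101 to 20.4%), each from 1 positive thinned cell. These classes thus cannot show whether it is background.

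*Scn8a*, the gene for the NaV1.6 pore of mature axons, was low in both radial glia and neurons. Its 4 levels in radial glia were 0.207, 0.107, 0.157 and 0.136, against 0.370, 0.348, 0.320 and 0.278 in excitatory neurons (log2 fold change 0.78 ± 0.23, limma adjusted p = 0.00626). The groups did not overlap, but the call was lost without WT6 (0.67, adjusted p = 0.0629), with a pseudocount of 0.01 (1.1, 0.0801) and with cells classed by Leiden clusters (0.17, 0.616). Melanocytes, where most members were absent, had *Scn8a* at 0.323 ± 0.12, and a UMI was found in 9.92% of thinned melanocytes and 8.46% of thinned excitatory neurons. The share was 3.49% in thinned radial glia and 3.5% in thinned cycling pallial cells, below that of melanocytes. In erythroid cells it was 4.35% (1 of 23), and none of the 25 thinned immune cells had one. The erythroid share rests on 1 cell (exact Clopper-Pearson 95% interval 0.11 to 21.9%), and the melanocyte share was also above that of excitatory neurons. Whether the UMIs in radial glia are expression or background therefore cannot be told from these classes.

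The other sodium channel genes lay below the filter. With no filter, 104 members could be tested, and 26 rose and 9 fell from radial glia to excitatory neurons, where 10.8% of all genes rose and 14.4% fell. *Scn1a* (NaV1.1) read 0, 0.00901, 0 and 0 in radial glia and 0.160, 0.112, 0.136 and 0.139 in excitatory neurons (log2 fold change 1.21 ± 0.21, limma adjusted p = 3.58e-05). *Scn2a1* (NaV1.2) rose by 0.83 ± 0.19 and the beta subunit *Scn3b* by 1.34 ± 0.28 in the same fit. *Scn1a*, *Scn2a1*, *Scn3a* and *Scn9a* lie on chromosome 2, between 65457118 and 66634962 on GRCm38. *Scn9a* gave 33 UMIs in all cells and *Scn2b* 31, and neither was called along the pallial path. With no filter, *Scn9a* (NaV1.7) was higher in interneuron-marker cells, at 0.146, 0.0340, 0.146 and 0, than in cycling Dlx cells, at 0.00637, 0, 0 and 0 (0.73 ± 0.19, limma adjusted p = 0.0043, higher in 3 of 4 libraries). *Scn4b* was not among the rows used here.

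**Figure D2:**
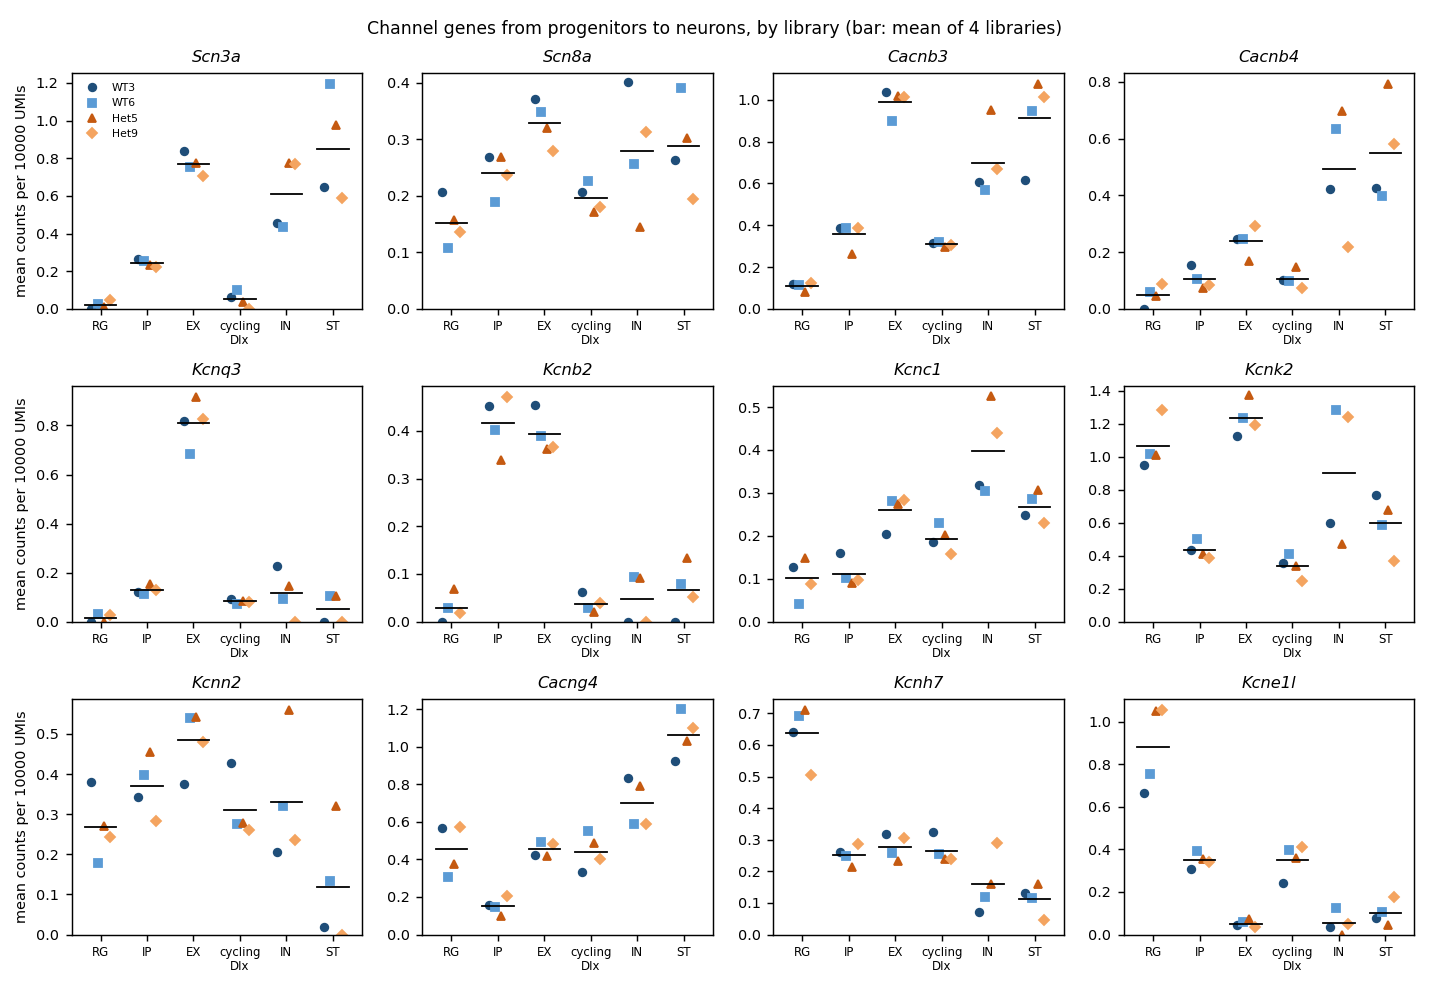
Mean counts per 10000 UMIs of 12 members (linear axes from 0) in radial glia (RG), intermediate progenitors (IP), excitatory neurons (EX), cycling Dlx, interneuron-marker (IN) and striatal-marker (ST) cells. Each point is 1 library and the bar is the mean of 4. *Kcnq3* stands at 0.686 to 0.915 in EX and at 0 to 0.225 in the other classes drawn, and *Kcne1l* is highest in RG.

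Among calcium channel subunits, *Cacnb3*, a beta subunit that traffics the pore, stood at 0.120, 0.112, 0.0796 and 0.122 in radial glia, at 0.263 to 0.388 in intermediate progenitors and at 1.04, 0.901, 1.02 and 1.01 in excitatory neurons. No 2 of these classes overlapped. The log2 fold change was 1.12 ± 0.21 over the first step, 1.27 ± 0.21 over the second and 2.39 ± 0.21 in all (limma adjusted p = 4.17e-12). With a pseudocount of 0.01 the second step was not called (1.47, adjusted p = 0.0587). *Cacnb4*, another beta subunit, rose by 1.21 ± 0.27 over both steps, and neither step alone passed the threshold. *Cacna2d1*, the alpha2delta subunit that binds gabapentin, was called in the first step, from 0.309, 0.0962, 0.210 and 0.165 in radial glia to 0.720, 0.703, 0.829 and 0.771 in intermediate progenitors (1.58 ± 0.29, limma adjusted p = 5.45e-05), though not with a pseudocount of 0.01 (2.01, 0.0732). Excitatory neurons had 1.06 to 1.15, above every intermediate progenitor value, and the second step was 0.48 ± 0.29 and not called.

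The calcium channel pores were low. *Cacna1a*, the P/Q-type pore, was the only one past the filter, and it fell from 0.359 to 0.530 in radial glia to 0.188 to 0.261 in excitatory neurons (-0.76 ± 0.24, limma adjusted p = 0.0101). The second step was called (-0.71 ± 0.24). Without WT6 or Het9 the fall over both steps was no longer called (-0.77 and -0.68, adjusted p = 0.0542 and 0.0585), nor with a pseudocount of 0.01 (-0.97, 0.183), marker limits raised by 1 (-0.63, 0.0515) or Leiden clusters (-0.10, 0.795). The second step was lost without any 1 of the 4 libraries (adjusted p from 0.0767 to 0.197), with a pseudocount of 0.01 (0.466), with median-of-ratios scaling (0.0554) and with thinned cells (0.0785). *Cacna1b*, the N-type pore, was above 0 in 1 radial glial library only (0.0226 in WT6) and read 0.144 to 0.227 in excitatory neurons (no filter, 1.34 ± 0.19). *Cacna1c* (162 UMIs), *Cacna1e* (102) and *Cacna1g* (86) had means of at most 0.0627 in both of these classes. In the fit with no filter, *Cacna1e*, the R-type pore, rose by 0.46 ± 0.15 (limma adjusted p = 0.0179, in 4 of 4 libraries) and *Cacna1g*, a T-type pore, fell by 0.40 ± 0.14 on the log2 scale (adjusted p = 0.0396, lower in 3 of 4), while *Cacna1c*, an L-type pore, was not called (0.45 ± 0.18, adjusted p = 0.0641). *Cacna1h*, another T-type pore with 227 UMIs, read 0.0316, 0.00879, 0.0199 and 0.0313 in radial glia and 0.0834, 0.120, 0.125 and 0.109 in excitatory neurons, with no overlap (0.77 ± 0.18, adjusted p = 0.00175). *Cacng2*, the AMPA receptor partner stargazin, was at 0 in all 4 radial glial libraries and at 0.108 to 0.147 in excitatory neurons.

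The potassium channels that rose were called at different steps. *Kcnq3* encodes a subunit of the M-current, which damps repetitive firing. It read 0, 0.0330, 0 and 0.0263 in radial glia, 0.114 to 0.156 in intermediate progenitors and 0.817, 0.686, 0.915 and 0.826 in excitatory neurons. Since it passed the filter only through excitatory neurons, the fit with no filter is given (2.99 ± 0.27, limma adjusted p = 1.94e-10). Both steps were called with the filter (1.0 ± 0.26 and 1.99 ± 0.26) and without it. The first was not called with the marker limits of the cell classes raised by 1 (0.52, adjusted p = 0.104). *Kcnq5*, of the same family, gave 13 UMIs.

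*Kcnb2*, a delayed rectifier of the KV2 family, was called in the first step. Its levels were 0, 0.0280, 0.0677 and 0.0187 in radial glia, 0.453, 0.402, 0.339 and 0.470 in intermediate progenitors and 0.455, 0.389, 0.362 and 0.365 in excitatory neurons. It passed the filter only through intermediate progenitors, so the first step is given with no filter (2.02 ± 0.23, limma adjusted p = 3.42e-08). The second step was -0.06 ± 0.22 with the filter, and the groups overlapped. *Kcnc1*, a KV3 channel of fast-spiking cells, rose in the second step (0.77 ± 0.20), where the call was lost without WT6 or Het5 (0.72 and 0.70, adjusted p = 0.0802 and 0.061) or with a pseudocount of 0.01 (1.17, 0.137). Its rise over both steps was not called with Leiden clusters (0.47, 0.0563), which group cells by their whole expression.

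Other members went down and came back. *Kcnk2*, the mechanosensitive two-pore leak channel TREK-1, fell from 0.951 to 1.28 in radial glia to 0.387 to 0.505 in intermediate progenitors (-1.12 ± 0.31) and stood at 1.13 to 1.37 in excitatory neurons (1.32 ± 0.31 over the second step). *Cacng4*, a calcium channel gamma subunit that also binds AMPA receptors, fell by 1.12 ± 0.24 on the log2 scale and then rose by 1.15 ± 0.24. For both genes intermediate progenitors overlapped neither neighbor, and radial glia and neurons differed by 0.20 ± 0.31 and 0.02 ± 0.24. The fall of *Kcnk2* was not called without Het9 (-0.99, adjusted p = 0.0538) or when UMIs were summed over cells (adjusted p = 0.0649). A pseudocount of 0.01 ended the call at each of these steps.

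**Figure D3:**
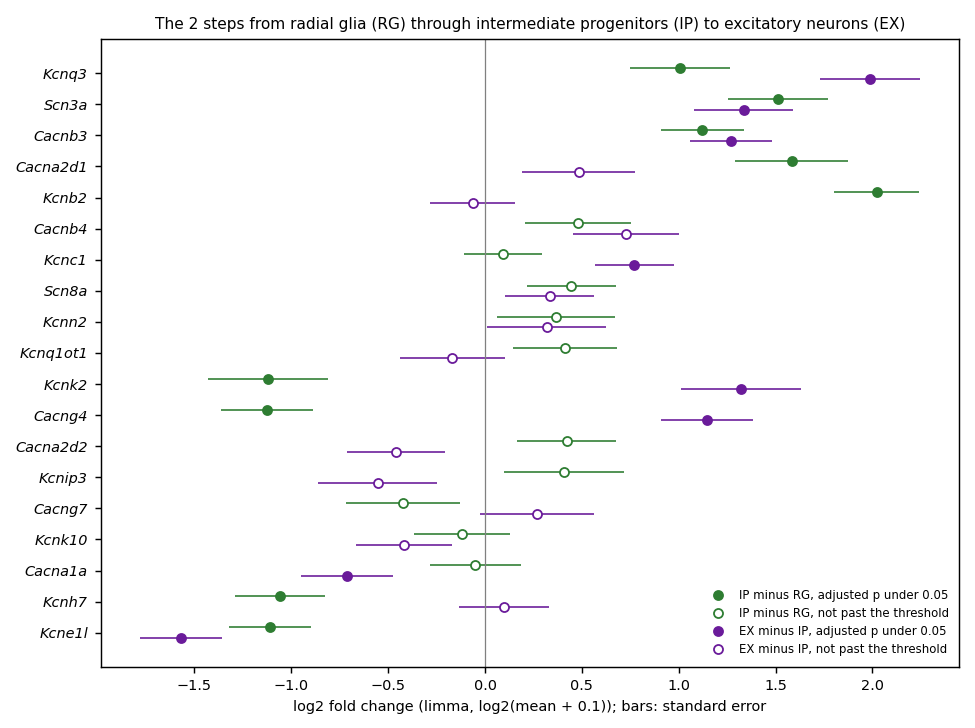
Log2 fold change with its standard error for 19 of the 20 members tested, from radial glia to intermediate progenitors (green) and from intermediate progenitors to excitatory neurons (purple), ordered by the change over both steps; filled points had an adjusted p under 0.05 (limma). *Kcnb2* changes in the first step, *Kcnc1* in the second, and *Kcnk2* and *Cacng4* move down and then up.

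Over single steps, 5 members rose and 4 fell from radial glia to intermediate progenitors, where 9.9% of all genes rose and 11.5% fell. From there to neurons 7 rose and 2 fell, where 6% of all genes rose and 5.85% fell. Other members were higher in radial glia than in excitatory neurons. *Kcne1l*, an auxiliary subunit of the KCNE family on the X chromosome, read 0.663, 0.755, 1.05 and 1.05 in radial glia, 0.306 to 0.392 in intermediate progenitors and 0.0345 to 0.0710 in excitatory neurons, with no overlap at either step (-2.68 ± 0.21 in all, limma adjusted p = 2.29e-13). Its first step was not called with a pseudocount of 0.01 (-1.29, adjusted p = 0.123). *Kcnh7*, an ERG-type channel, was at 0.641, 0.692, 0.712 and 0.505 in radial glia and at 0.231 to 0.318 in neurons, and its first step was called (-1.06 ± 0.23). With a pseudocount of 0.01 neither this step (-1.3, adjusted p = 0.0756) nor the fall in all (-1.17, 0.081) was. *Kcnj10*, the inward rectifier Kir4.1 that buffers potassium in astrocytes, lay below the filter, with 0.315, 0.197, 0.374 and 0.151 in radial glia and 0 to 0.00796 in neurons (no filter, -1.75 ± 0.16). *Kcnj13*, another inward rectifier, gave 75 UMIs, *Kcnk1* 86 and *Kcnma1* 37, and none of these was called along the pallial path with no filter. *Kcnip4*, a KV4 partner with 19 UMIs, was called lower in excitatory neurons in that fit, at 0.00661, 0.0169, 0 and 0 against 0.103, 0.0327, 0 and 0.0312 in radial glia (-0.38 ± 0.10, limma adjusted p = 0.00628, lower in 3 of 4 libraries).

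In the Dlx lineage, cycling cells were set against interneuron-marker and striatal-marker cells. From cycling Dlx to interneuron-marker cells 7 members rose and 1 fell, where 13.3% of all genes rose and 13.9% fell. To striatal-marker cells 8 rose and 3 fell, where 12.7% rose and 12.8% fell. Both comparisons use the same cycling cells, so their values are given side by side. *Scn3a* was at 0.0654, 0.0997, 0.0345 and 0 in cycling Dlx cells, at 0.455, 0.433, 0.777 and 0.769 in interneuron-marker cells and at 0.650, 1.19, 0.979 and 0.586 in striatal-marker cells. The changes were 2.25 ± 0.26 and 2.66 ± 0.26 (limma adjusted p = 4.01e-09 and 6.2e-11), and neither neuron class overlapped the cycling cells. *Cacnb4* changed by 1.45 ± 0.27 and 1.63 ± 0.27 and *Cacnb3* by 0.94 ± 0.21 and 1.28 ± 0.21. In interneuron-marker cells *Cacnb4* was not called with thinned cells (0.80, adjusted p = 0.129), nor *Cacnb3* with a pseudocount of 0.01 (1.12, 0.104).

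Some members passed the test in 1 of these 2 comparisons. *Kcnk2* and *Kcnc1* were called in interneuron-marker cells (1.10 ± 0.31 and 0.74 ± 0.20), the first not without Het9 (0.81, adjusted p = 0.109) or with a pseudocount of 0.01 (1.28, 0.176). *Kcnc1* was not called with a pseudocount of 0.01 (0.98, adjusted p = 0.135), thinned cells (0.57, 0.12) or raised marker limits (0.38, 0.183). *Cacna2d2* and *Cacng4* were called in striatal-marker cells (1.29 ± 0.26 and 1.12 ± 0.24), the second not with a pseudocount of 0.01 (1.27, adjusted p = 0.144). *Cacna2d2*, which passed the filter only through these cells, was called with no filter too (1.29 ± 0.27). *Kcne1l* fell in both, by 1.61 ± 0.21 and 1.18 ± 0.21 on the log2 scale, and *Kcnh7* in striatal-marker cells (-0.80 ± 0.23), though not with a pseudocount of 0.01 (-1.27, adjusted p = 0.0715), thinned cells (-0.62, 0.0505) or raised marker limits (-0.54, 0.128). *Kcnq1ot1* rose by 1.64 ± 0.27 in interneuron-marker cells. The striatal-marker changes of *Kcnn2*, a small conductance calcium-activated channel (-1.13 ± 0.31), and *Kcnq1ot1* (0.71 ± 0.27) had the sign in 3 of 4 libraries. *Kcnn2* was not called without WT3 (-0.79, adjusted p = 0.0826) or Het9 (-0.89, 0.0791) or with Leiden clusters (-0.52, 0.158). *Kcnq1ot1* was not without WT3 (0.54, 0.28), WT6 (0.46, 0.378) or Het5 (0.89, 0.054), nor with a pseudocount of 0.01 (0.81, 0.0692) or 1 (0.33, 0.0762), no filter (0.71, 0.0936), median-of-ratios scaling (0.70, 0.0565) or Leiden clusters (0.36, 0.497). *Cacna1a* was called at 0.62 ± 0.24 in striatal-marker cells (adjusted p = 0.0497), and not without WT3 (0.50, 0.213), WT6 (0.77, 0.0683) or Het5 (0.47, 0.23). Nor was it with a pseudocount of 0.01 (0.282), no filter (0.0581), median-of-ratios scaling (0.0613), raised marker limits (0.0608), Leiden clusters (0.14, 0.767) or no library block (0.0525).

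Direct comparison of the neuron classes showed which channels differed by lineage. Interneuron-marker cells had 1 member higher and 3 lower than excitatory neurons, where 4.53% of all genes were higher and 7.72% lower. Striatal-marker cells had 3 higher and 7 lower, where 4.19% of all genes were higher and 6.4% lower. The 2 comparisons share the excitatory neurons. Both counts include *Cacna2d2*, *Kcnq3* and *Kcnb2*, which passed the filter only through their highest class. The alpha2delta genes divided along this line. *Cacna2d1* read 1.07, 1.06, 1.11 and 1.15 in excitatory neurons, 0.0860, 0.0385, 0.0442 and 0 in interneuron-marker cells and 0.05, 0.0592, 0.446 and 0 in striatal-marker cells (-3.10 ± 0.29 and -2.65 ± 0.29, limma adjusted p = 5.89e-11 and 3.64e-09). *Cacna2d2* read 0, 0.00855, 0.0115 and 0.0176 in excitatory neurons, 0.187, 0.226, 0.0361 and 0.412 in interneuron-marker cells and 0.448, 0.396, 0.593 and 0.155 in striatal-marker cells. With no filter the changes were 1.38 ± 0.27 and 2.1 ± 0.27 (limma adjusted p = 0.000445 and 7.36e-07). No Dlx neuron library reached the excitatory level of *Cacna2d1*, and none was as low as the excitatory level of *Cacna2d2*. The promoters printed above held 7 GGGCGG matches for *Cacna2d1* and 1 for *Cacna2d2*, and a link of these matches to the levels was not tested.

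**Figure D4:**
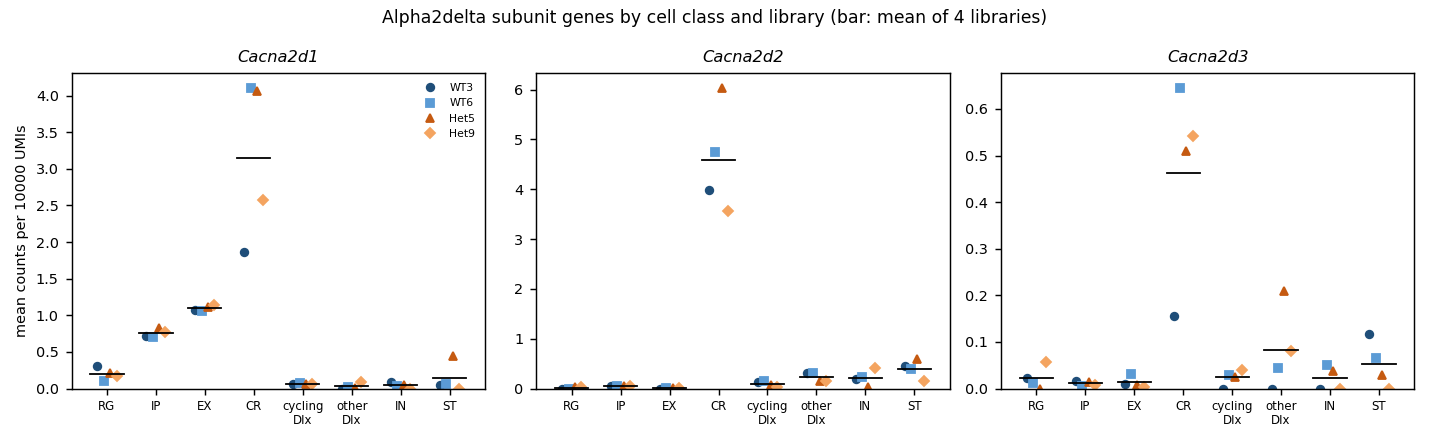
Mean counts per 10000 UMIs of the 3 alpha2delta genes in the table (linear axes from 0) by class, with Cajal-Retzius cells (CR) included; each point is 1 library and the bar is the mean of 4. *Cacna2d1* rises along RG, IP and EX and is at 0.446 or less in the Dlx neurons, *Cacna2d2* is at 0 to 0.0176 in EX, and all 3 are highest in CR.

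Of the potassium channels, *Kcnq3* and *Kcnb2* were higher in excitatory neurons than in both Dlx neuron classes. *Kcnq3* was lower in interneuron-marker and striatal-marker cells by 2.20 ± 0.26 and 2.66 ± 0.26 on the log2 scale, with 0 to 0.225 and 0 to 0.105 against 0.686 to 0.915. *Kcnb2* read 0 to 0.0944 and 0 to 0.134 in these cells (-1.82 ± 0.22 and -1.63 ± 0.22). *Scn3a* showed no called difference, at -0.33 ± 0.26 and 0.09 ± 0.26. Below the filter, *Kcna1* (128 UMIs) was at 0.0850 in excitatory neurons and at 0 in every library of both Dlx neuron classes, and *Kcng1*, a silent subunit, was at 0.0813 in excitatory neurons, at 0 in interneuron-marker cells and at 0.00948 in striatal-marker cells.

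Higher in striatal-marker cells than in excitatory neurons were, besides *Cacna2d2*, *Cacng4* with 0.925, 1.20, 1.03 and 1.10 against 0.421, 0.491, 0.418 and 0.482 (1.07 ± 0.24, no overlap) and *Cacnb4* (0.91 ± 0.27). The call of *Cacng4* was lost with a pseudocount of 0.01 (1.21, adjusted p = 0.297). That of *Cacnb4* was lost without WT6 (1.04, adjusted p = 0.0621) or Het5 (0.64, 0.303), with summed UMIs (0.68, 0.182), with thinned cells (0.39, 0.662) and with a pseudocount of 0.01 (1.14, 0.469). *Kcnn2* was lower by 1.65 ± 0.31 on the log2 scale and *Kcnq1ot1* by 1.29 ± 0.27. *Kcnk2* (-0.96 ± 0.31) was lower too, but not past the threshold without WT6 (-0.96, adjusted p = 0.103), Het5 (-0.98, 0.111) or Het9 (-0.79, 0.233) or with summed UMIs (-0.94, 0.143), a pseudocount of 0.01 (-1.07, 0.492), no filter (0.0654) or median-of-ratios scaling (0.0618). *Kcnh7* (-0.86 ± 0.23) was not past it without WT6 (-0.90, 0.0524) or Het9 (-0.65, 0.0978), or with a pseudocount of 0.01 (-1.34, 0.107), thinned cells (-0.61, 0.104) or raised marker limits (-0.64, 0.121).

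Striatal-marker and interneuron-marker cells differed in 2 members, both lower in striatal-marker cells, where 3.15% of all genes were lower and 3.22% higher. *Kcnn2* read 0.0199, 0.135, 0.321 and 0 against 0.207, 0.321, 0.559 and 0.236 (-1.15 ± 0.31, limma adjusted p = 0.0141). It was lower in all 4 libraries, though the groups overlapped, and the call was lost without WT6 (-1.25, 0.065) or Het9 (-0.95, 0.157) and with summed UMIs (-0.92, 0.132) or thinned cells (-0.44, 0.403). *Kcnq1ot1* (-0.92 ± 0.27, adjusted p = 0.0296) was lower in 3 of 4 libraries. Its interneuron-marker level was 2.87 in Het9, from 42 cells, and 0.739 to 1.28 in the others, and without Het9 the difference was -0.22 (adjusted p = 0.72). Without Het5 it was -1.01 (0.0756), with summed UMIs -0.72 (0.0736) and with raised marker limits -0.70 (0.0821), and with no filter its adjusted p was 0.054. With no filter, *Kcnd3* and *Kcnip1*, a KV4 pore and a KV4 partner, were also lower in striatal-marker cells (-0.93 ± 0.24 and -1.19 ± 0.19), and *Kcnd2*, another KV4 pore, was higher (0.79 ± 0.21, in 3 of 4 libraries). Without the filter 5.29% of all genes were called.

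Cajal-Retzius cells, early reelin-secreting neurons of the marginal zone, were too few for the fit, with 8, 15, 8 and 8 cells, and are described without a test. Of the 47 members with at least 100 UMIs, 16 were highest there, as were 17% of all genes with as many UMIs. *Cacna2d2* read 3.99, 4.74, 6.03 and 3.56, a mean of 11.5 times that of the next class, striatal-marker cells. *Cacna2d1* read 1.87, 4.10, 4.07 and 2.57, or 2.88 times excitatory neurons, and *Cacna2d3* 0.156, 0.644, 0.511 and 0.541, or 5.59 times other Dlx cells. *Kcnk2* read 2.71, 2.18, 4.89 and 2.44. In 5 members every Cajal-Retzius library lay above every library of the 8 large neural classes, and these were *Cacna2d1*, *Cacna2d2*, *Kcnk2*, *Cacna1b* and *Kcnb2*. The same held for 221 of 10904 genes with at least 100 UMIs, or 2.03%. *Kcnq3*, in contrast, was at 0.151 in WT3 and at 0 in the other 3 libraries. A UMI of *Cacna2d2* was seen in 61.5% of the 39 cells after thinning and 82.1% before, at a median of 7592 UMIs, against 0.116% and 0.432% of excitatory neurons and none of the melanocytes. Of erythroid cells 4.35% (1 of 23) and 12.5% (4 of 32) had one.

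Proteins that anchor, partner or drive channels were taken from a list of 41 genes, of which 20 passed the filter. From radial glia to excitatory neurons 8 rose and 6 fell, where 16.7% of all genes rose and 18% fell. *Ank3*, the ankyrin that holds sodium and KCNQ channels at the axon initial segment, rose from 0.0205 to 0.145 to 2.32 to 2.59 (3.98 ± 0.22), and its binding partner *Nfasc* by 2.73 ± 0.28. *Unc79*, of the sodium leak complex, rose by 1.26 ± 0.24. *Rest*, a repressor of neuronal genes, fell by 1.80 ± 0.26 on the log2 scale, from 0.347 to 0.494 down to 0.0345 to 0.0583. *Ank3* also rose from cycling Dlx to interneuron-marker cells (3.24 ± 0.22), while *Nfasc* changed by 0.44 ± 0.28 there and was lower in interneuron-marker cells than in excitatory neurons (-3.13 ± 0.28).

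Genotype was compared over the 4 library means, 2 against 2. In all cells 22 members passed the filter and 0 were called by limma, where 0.086% of all genes were called. At an unadjusted p under 0.05 there were 2, *Cacna2d2* (-0.38 ± 0.12) and *Cacna2d1* (0.24 ± 0.085), with *Scn3a* next (-0.16 ± 0.071). All 3 had a limma adjusted p of 0.994. *Cacna2d2* read 0.113 and 0.164 in the wild type libraries and 0.0918 and 0.0741 in the heterozygous ones. For *Cacna2d1* the values were 0.542 and 0.458 against 0.594 and 0.616. Summed cell class markers, in counts per 10000 UMIs over all cells, did not overlap between the genotypes either in 8 of 15 lists, higher in the wild type libraries in 5 and in the heterozygous ones in 3. The 7 general Dlx-lineage markers read 9.3 and 9.72 in the wild type libraries and 7.72 and 7.44 in the heterozygous ones, the 7 interneuron markers 1.25 and 1.24 against 0.811 and 0.8, and the 6 striatal markers 2.38 and 3.41 against 1.3 and 2.04. The 5 excitatory markers read 13.3 and 10.6 against 14.1 and 14.9, and the 2 intermediate progenitor markers 3.26 and 3.74 against 4.67 and 4.22. The 3 further Cajal-Retzius markers beside *Reln*, whose class had the highest *Cacna2d2* level, read 0.0593 and 0.0809 against 0.0368 and 0.0579, the 3 glial progenitor markers 0.277 and 0.376 against 0.235 and 0.158, and the 9 immune markers 2.59 and 2.46 against 3.01 and 5.01. All genes of these 8 lists were above 0 in every library, and the part of these markers in the differences of *Cacna2d2* and *Cacna2d1* was not tested. Neither gene overlapped between the genotypes, and an exact permutation test of 2 against 2 cannot give a p under 0.33. The median standard error of the members was 0.085 in all cells.

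Within classes, 0 members were called in each of the 10 classes tested, with 4 to 29 members tested. The share of all genes called was 0.0613% in radial glia, 0.135% in cycling pallial cells, 0.0911% in intermediate progenitors, 0.155% in excitatory neurons, 0.0939% in cycling Dlx cells, 0.263% in other Dlx cells, 0.0393% in interneuron-marker cells, 0.0525% in striatal-marker cells and 0% in melanocytes and immune cells. At an unadjusted p under 0.05 there were 0 to 3 members in a class. The smallest p belonged to *Kcnq1ot1* in striatal-marker cells, with 1.06 and 1.29 against 0.435 and 0.265 (-1.53 ± 0.31, limma adjusted p = 0.0789). It was past the threshold when UMIs were summed over cells (-1.44, adjusted p = 0.034), without Het5 (-1.80) and without Het9 (-1.25), where the remaining heterozygous library is assumed to vary like the wild type ones. The shares of all genes called in these 3 fits were 0.197%, 1.82% and 2.2%. Next in these cells were *Kcnmb4*, a beta subunit of the BK channel (1.19 ± 0.47), and *Cacnb4* (0.61 ± 0.32). In interneuron-marker cells the smallest p belonged to *Kcnip1* (1.27 ± 0.53), *Cacng2* (1.26 ± 0.52) and *Scn3b* (1.20 ± 0.55), in excitatory neurons to *Kcnn1* (0.30 ± 0.16), *Kcnq3* (0.19 ± 0.11) and *Scn8a* (-0.20 ± 0.13), and in intermediate progenitors to *Kcnq1ot1* (-0.23 ± 0.09), *Cacnb4* (-0.36 ± 0.17) and *Kcnk2* (-0.19 ± 0.12). *Cacna2d2* led in other Dlx cells, with 0.320 and 0.307 against 0.147 and 0.149 (-0.74 ± 0.30, limma adjusted p = 0.78). In cycling pallial cells it was *Kcnj10* (0.58 ± 0.26), in cycling Dlx cells *Kcnk2* (-0.31 ± 0.18) and in immune cells *Kcnk13* (-1.86 ± 0.75). None of these passed the adjusted threshold. In interneuron-marker cells *Kcnq1ot1* had its highest value in Het9 and its lowest in Het5. *Kcne1l*, on the X chromosome, read 0.663 and 0.755 against 1.05 and 1.05 in radial glia (0.51 ± 0.19, limma adjusted p = 0.979). The change from radial glia to excitatory neurons differed by genotype in 0 of 24 members tested (0 at an unadjusted p under 0.05, limma), where 0% of all genes were called, and the smallest adjusted p was 0.977. The median standard error was 0.334. With Leiden clusters in place of the marker gates, 3 values by genotype were past the threshold, where 0.201% of all genes were called in radial glia and 0.131% in the change to excitatory neurons. In the cluster taken as radial glia these were *Kcne1l* (1.28, limma adjusted p = 0.0106) and *Kcnq1ot1* (-1.66, 0.0143, against 0.26 with the gates), and in the change from radial glia to excitatory neurons *Kcnq1ot1* (1.62, 0.00251, against -0.34). Both signs of *Kcnq1ot1* thus turned with the way cells were classed.

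**Figure D5:**
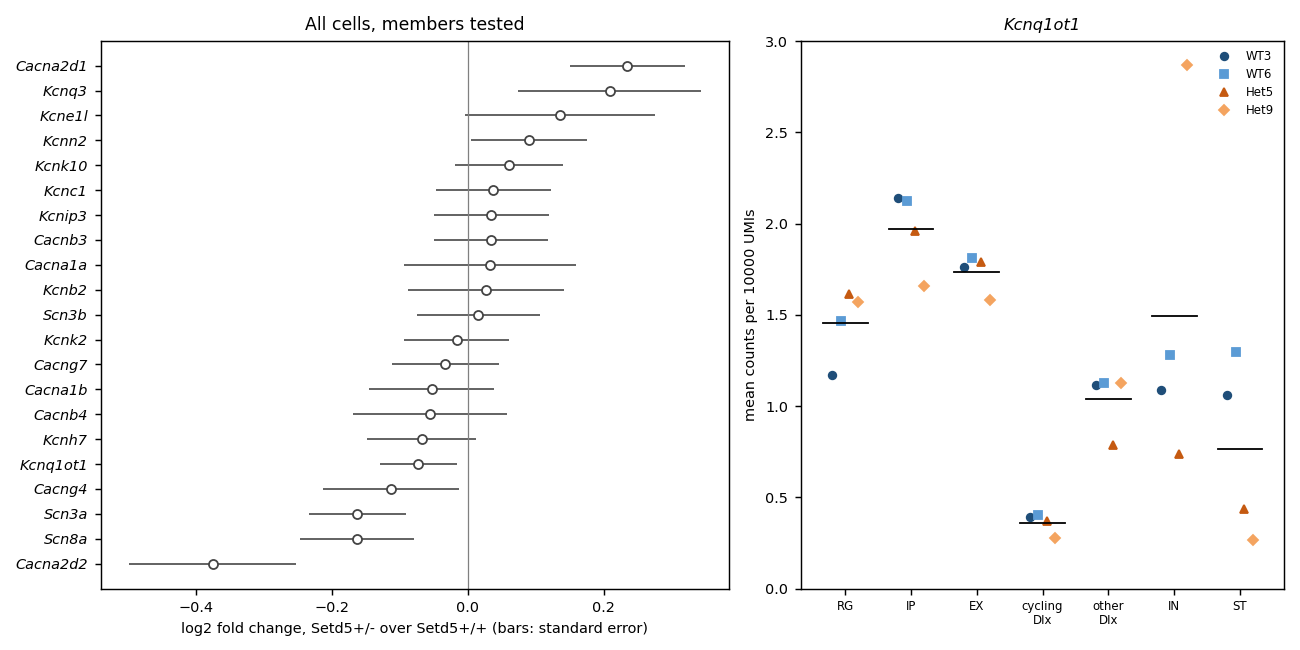
Left, log2 fold change of *Setd5*+/- over *Setd5*+/+ in all cells with its standard error for 21 of the 22 members tested; right, mean counts per 10000 UMIs of *Kcnq1ot1* by class, with 1 point per library and the mean of 4 as a bar. All fold changes lie between -0.38 and 0.24, none with an adjusted p under 0.05. *Kcnq1ot1* is lower in both heterozygous libraries in striatal-marker cells (ST), intermediate progenitors (IP) and cycling Dlx cells. It is higher in both in radial glia (RG), and its interneuron-marker (IN) values spread from 0.739 to 2.87.

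Exons of 17 members overlap exons of another gene on the opposite strand in GENCODE M21, among them *Cacna1a*, *Kcnh7*, *Kcnk2*, *Kcnn2* and *Kcnd3*. The use of strand in counting is not given in the sources used here, so reads of the overlapping gene cannot be told apart from theirs if strand was not used.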

How the data were processed

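Single-cell RNA-Seq was available for sorted cortical cells of 4 fetuses, with 1 library per fetus taken from the prefix of the cell names. The authors deposited 1 table of natural log values: each cell's UMIs were scaled to 10000, 1 was added and the log taken. The build listed by the submitters is mm10, and their listed tools are Seurat 2.3.0 and Cell Ranger 2.1. Annotation, strand setting and cell filters: not given in the sources used here. Undoing the log gave whole UMIs for 100% of 14848520 values (tolerance 0.001). No count model was used, since the design set limma for log values.

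Cells went to classes by UMIs of fixed markers, tested in a set order: melanocyte, immune, erythroid (globins at least 5% of UMIs), mixed, Cajal-Retzius, cycling Dlx, cycling pallial, striatal-marker, interneuron-marker, other Dlx, glial progenitor, radial glia, intermediate progenitor and excitatory neuron, with limits of 1 to 3 UMIs or genes. No doublet caller was run, and 87 cells with markers of both lineages (mixed) and 80 unassigned cells were left out. Per class and library, the mean counts per 10000 was taken, and limma (3.58.1, with trend, R 4.3.3) was run on log2(mean + 0.1) for genes with a mean of at least 0.1, in classes of at least 20 cells in every library. Class contrasts had the library as a block, and genotype contrasts had none. Adjustment was by Benjamini-Hochberg over all genes tested, two-sided, with a threshold of 0.05.

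Members and lists were chosen with earlier results of these data known. Named are the called members of largest change with the same sign in all 4 libraries (10 higher and 5 lower along the pallial path, 5 and 5 in the other class contrasts), a fixed list, the 3 of smallest p by genotype (in the smaller contrasts only the first) and the 3 of highest level per class. *Kcna1*, *Kcng1*, *Kcnip3*, *Cacna1b*, *Cacna1h*, *Cacna2d3* and, between the Dlx neurons, *Kcnip1*, and calls in 3 of 4 libraries, are outside this rule and were chosen after their values were seen. A few genes of these lists count in the totals but are not reported here. Alternatives were other pseudocounts, no filter, other scaling, summed UMIs, thinning, shared barcodes left out, stricter gates, Leiden clusters, no block and each library left out. Coordinates are GENCODE M21 and RefSeq on GRCm38. Python 3.11.15, scipy 1.17.1, leidenalg 0.10.2 and matplotlib 3.10.9 were used.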

Additional observations from a re-analysis of the deposited data

Results flagged for a closer look

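In 1 of 65 called changes, the library farthest from the rest stood apart by Dixon's test for 4 values, which chance gives in about 1 of 20 groups. *Kcnc1* changed by 0.23 on the log2 scale from intermediate progenitors to excitatory neurons in WT3, and by 0.92, 0.98 and 0.96 in WT6, Het5 and Het9.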

How the results depend on the processing

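Of the values of single members that were called, 819 kept their direction and their side of the threshold over 14 settings, 91 kept the direction but not the threshold and 0 reversed; 25 of the latter came with a pseudocount of 0.01. No paired analysis was possible because, for genotype, each library is a different fetus and the cell-name prefixes carry no replicate number; class contrasts had the library as a block. With a pseudocount of 0.01, 1 member fell along the pallial path, 5 were called from radial glia to intermediate progenitors and 4 on to excitatory neurons, 5 and 7 in the interneuron-marker and striatal-marker steps, and 6 between striatal-marker cells and excitatory neurons, where 15.3%, 7.33%, 20.9%, 18.7% and 7.69% of all genes were called in the last 5 of these contrasts. With a pseudocount of 1, 8 were called between interneuron-marker cells and excitatory neurons and 4 between the Dlx neuron classes (14.3% and 8.56% of all genes). With no filter, which tested 104 members, 26 rose and 9 fell along the pallial path, and 17, 19, 20, 23, 22, 16 and 10 were called in the other class contrasts in the order reported, where 15.6%, 7.36%, 16.7%, 16.1%, 9.09%, 7.73% and 5.29% of all genes were. Without cells of shared barcodes, 14 rose along the pallial path, 13 and 17 were called in the Dlx steps, 11 between interneuron-marker cells and excitatory neurons and 4 between the Dlx neuron classes, where 43.3%, 41.3%, 23.6% and 18% of all genes were called; 25 members passed the filter there. The shares of all genes called moved too: along the pallial path 34.7% as reported, 26.3% with a pseudocount of 0.01, 38% with 1, 25.2% with no filter, 48.4% without shared barcodes, 34.1% with thinning and 40.8% with Leiden clusters. From radial glia to intermediate progenitors Leiden clusters gave 32.1% of all genes against 21.4%, and as reported the shares were 27.2% and 25.6% in the Dlx steps, 12.3% and 10.6% in the interneuron-marker and striatal-marker comparisons with excitatory neurons and 6.36% between the Dlx neuron classes. Thinning gave 7 (13.8% of all genes) between interneuron-marker cells and excitatory neurons. Leiden clusters, which put 75.4% of gated cells in the same class, gave 14 from radial glia to intermediate progenitors (32.1% of all genes). They gave 7 between interneuron-marker cells and excitatory neurons (12%) and 6 between the Dlx neuron classes (5.7%). By genotype they gave 2 in radial glia (*Kcne1l* 1.28 and *Kcnq1ot1* -1.66, 0.201% of all genes) and 1 in the change along the pallial path (*Kcnq1ot1*, 1.62, 0.131%). In radial glia and in the change along the path *Kcnq1ot1* had the opposite sign with the gates (0.26 and -0.34). Of the 375 gated radial glia, 100 were in the cluster taken as radial glia and 196 in one taken as cycling pallial cells, and 37 of the 39 Cajal-Retzius cells were in one taken as intermediate progenitors. Summed UMIs gave 1 by genotype in striatal-marker cells and ended 5 calls between classes. Calls were also ended by thinning (8), raised marker limits (7), Leiden clusters (6), median-of-ratios scaling (4), no filter (4), a pseudocount of 1 (1) and no library block (1), with the values of those reported beside the results. Leaving out 1 library gave 4 to 7 (7 without Het9) between interneuron-marker cells and excitatory neurons, where 9.7% to 10.4% of all genes were called. Between the Dlx neuron classes it gave 1 to 2 (1 without WT6, Het5 or Het9), where 4.6% to 5.67% were. By genotype it leaves 1 fetus in a group, and *Kcnq1ot1* in striatal-marker cells changed by -1.80 without Het5 and -1.25 without Het9. The cause of these changes was not tested, apart from the members tested with no filter and without shared barcodes, whose number differed by construction. Few UMIs per member limit what could be seen in small classes.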

Other observations

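Glial progenitors, read from 6 to 25 cells per library, had *Kcnk2* at 1.74 ± 0.63 (SD, n = 4), *Kcne1l* at 0.766 ± 0.22 and *Kcnip3*, a calcium sensor that partners KV4 channels, at 0.546 ± 0.36 counts per 10000. In melanocytes, nearly all of them cells with shared barcodes, *Kcnq1ot1* stood at 0.841 ± 0.095 and *Scn8a* at 0.323 ± 0.12. Immune cells had *Kcnab2* at 0.279 ± 0.30 and *Kcnn4*, the calcium-activated channel of blood cells, at 0.194 ± 0.18.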
